A study of Mus musculus with 16 samples.

Results

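Glutamate acts in the hippocampus through ion channels and through G-protein-coupled receptors, and 33 genes for these receptors and their auxiliary subunits were examined in the hippocampus of 16 mice. They were the genes of the deposited count table whose name was in a fixed list, 33 of 55335 genes in the table. The list held 16 ionotropic subunits (4 AMPA, 5 kainate, 1 delta and 6 NMDA receptor subunits), 6 metabotropic receptors and 11 auxiliary subunits. The auxiliary subunits were 6 TARPs (transmembrane AMPA receptor regulatory proteins, the Cacng genes), 2 cornichons, 2 Neto proteins and GSG1L. By family the genes were Gria1 to Gria4 (AMPA), Grik1 to Grik5 (kainate), Grid1 (delta), Grin1, Grin2a to Grin2d and Grin3a (NMDA), Grm2 to Grm5, Grm7 and Grm8 (metabotropic), Cacng2 to Cacng5, Cacng7 and Cacng8 (TARPs), Cnih2, Cnih3, Neto1, Neto2 and Gsg1l. Whole-hippocampus RNA was sequenced from 4 female mice in each of 4 groups: WT-D and 3xTg-D, infused with vehicle, and WT-S and 3xTg-S, infused with the stearoyl-CoA desaturase inhibitor (SCDi) CAY10566.

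The 3xTg mice carry human APP and tau transgenes with the Swedish and P301L changes, driven in neurons by a mouse Thy1 element. The WT mice are labelled C57BL/6J x 129S1 and carry neither transgene, so all alterations of the 3xTg line were compared together and not one by one. All mice had a pump that delivered fluid to the lateral ventricle at 0.11 µl/h for 28 days, and were 10 months old at dissection. Pumps held 0.8% DMSO in artificial cerebrospinal fluid, with 80 µM inhibitor in the WT-S and 3xTg-S groups. The treatment labels name the Cayman compound, whereas a protocol note common to every library gives ab142089, and the former was followed.

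AMPA receptors (GluA1 to GluA4) carry most fast excitatory current, and NMDA receptors pair GluN1 with GluN2 or GluN3 subunits and admit calcium when the synapse is active. Kainate receptors (GluK1 to GluK5) tune release and excitability, whereas metabotropic receptors signal through G proteins. Group I (mGlu5 here) raises calcium, group II (mGlu2 and mGlu3) and group III (mGlu4, mGlu7 and mGlu8) lower cyclic AMP. TARPs, cornichons and GSG1L bind AMPA receptors, and the Neto proteins bind kainate receptors.

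Of the 33 genes, 4 passed the study's threshold in at least 1 comparison: Grm3, Grm8, Grik1 and Neto2. Their annotated start regions are shown to place these genes on the genome, and counts per gene do not tell which start was used. RefSeq (GRCm38.p6) gave a promoter for 21 of the 33 genes and for 3 of these 4, not for Grik1. Each runs from 250 bases before to 50 bases after the most upstream of the listed start sites, of which Grm3 has 1, Grm8 3 and Neto2 2. CG dinucleotides are in capitals, all 3 genes lie on the minus strand, and the sequences are written 5′ to 3′.
Grm3, chr5:9725303-9725602: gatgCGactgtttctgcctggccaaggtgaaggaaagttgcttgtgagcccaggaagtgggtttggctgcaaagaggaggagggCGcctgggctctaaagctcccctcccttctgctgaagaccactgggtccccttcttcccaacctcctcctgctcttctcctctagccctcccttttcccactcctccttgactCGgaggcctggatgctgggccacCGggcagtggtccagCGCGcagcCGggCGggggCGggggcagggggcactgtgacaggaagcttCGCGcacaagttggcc
Grm8, chr6:28135097-28135396: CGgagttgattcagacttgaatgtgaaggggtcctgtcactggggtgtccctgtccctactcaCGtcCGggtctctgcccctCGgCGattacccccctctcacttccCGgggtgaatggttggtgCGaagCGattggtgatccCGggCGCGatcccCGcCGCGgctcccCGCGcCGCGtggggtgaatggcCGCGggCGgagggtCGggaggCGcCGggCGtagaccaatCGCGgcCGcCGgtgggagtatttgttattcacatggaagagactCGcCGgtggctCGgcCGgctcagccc
Neto2, chr8:85700875-85701174: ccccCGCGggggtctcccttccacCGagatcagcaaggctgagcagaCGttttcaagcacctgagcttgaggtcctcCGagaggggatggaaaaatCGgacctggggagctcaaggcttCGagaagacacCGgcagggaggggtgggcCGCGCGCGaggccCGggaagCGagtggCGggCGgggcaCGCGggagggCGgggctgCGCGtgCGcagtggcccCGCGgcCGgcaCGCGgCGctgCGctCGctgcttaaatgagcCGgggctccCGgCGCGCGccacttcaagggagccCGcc
The Grm3 stretch held 11 CG dinucleotides, a number reached by 41.4% of all 32851 RefSeq promoters of this length. The Grm8 stretch held 33, reached by 8.56%, and the Neto2 stretch held 36, reached by 6.23%. The listed Grm3 start lies 182 bases upstream of the gene's 5′ end in the count table's annotation. The Grm8 start lies 32 bases inside the gene from its 5′ end, and the Neto2 start at that end.

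Libraries held 15413385 to 23590149 reads assigned to genes, and each of the 33 genes had between 84 and 30747 reads in every mouse. All 33 passed the filter on low counts, with 16475 genes tested. Thy1, part of the transgene construct, was at 549 ± 25.6 CPM (reads scaled to a common library size; SD, n = 4) in WT-D and 1885 ± 122 in 3xTg-D mice; with inhibitor it was at 569.6 ± 42.1 in WT-S against 1843 ± 238 in 3xTg-S, and no WT mouse reached a 3xTg mouse. Summed markers of CA1 and CA3 pyramidal cells and dentate granule cells were present in every mouse, at 279.5 to 444, 536 to 768 and 173 to 294 CPM. The sum of 8 choroid plexus markers was 735 CPM in WT-D mouse 4 and 293.5 in WT-S mouse 1, against 27.6 to 61.4 in the other mice. Values without each of these libraries are given in the comparisons that use it. In whole tissue, fewer cells of a type and less RNA per cell cannot be told apart.

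Levels were set side by side as CPM per kb of exon, as medians over the 16 mice. Gria1 (GluA1) was the highest of the 33 genes at 201 CPM per kb, followed by the cornichon Cnih2 at 135 and by Gria2 (GluA2) at 90.4, the same first 3 genes as with the length of the principal transcript. With that length Cnih2 (137 CPM per kb) and Gria2 (135.6) were close, and in 3xTg-S mice the Gria2 mean (145.5 ± 10.6) was above that of Cnih2 (134.5 ± 30.8). Within the AMPA receptor family Gria4 was lowest at 13.2 CPM per kb. Gria1 made up 59.9 ± 1.54% (SD, n = 4) and Gria2 27.8 ± 1.18% of the 4 AMPA subunits per exon length in WT-D mice, and their means in the other groups lay between 60.1% and 61.6% and between 26.4% and 27.4%. With the principal transcript length the WT-D shares were 51.9% and 32.2%.

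Among NMDA receptor genes the obligatory subunit Grin1 was highest at 33 CPM per kb of exon and Grin2d lowest at 0.984. About 13.5% of the exon length of Grin1, 9.66% of Grin2d and 9.60% of Grm2 lies under a gene of the other strand. The count table has a separate line for ambiguous reads, so the counts of these 3 genes may lack reads from those stretches. Grik5, a GluK5 subunit that needs a partner to form a channel, was the highest kainate receptor gene at 24.4 CPM per kb, and Grik1 the lowest at 2.40. Grm5 led the metabotropic receptors at 40.3 CPM per kb, and Grm4 (0.946), Grm8 (0.974) and Grin2d overlapped in their ranges at the foot of the list. Cacng7 (35.2) was highest and Cacng5 (2.24) lowest among the TARPs. Cnih3 (17.2) stood below Cnih2, and the order of Neto1 and Neto2 depended on the length used.

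**Figure D1:**
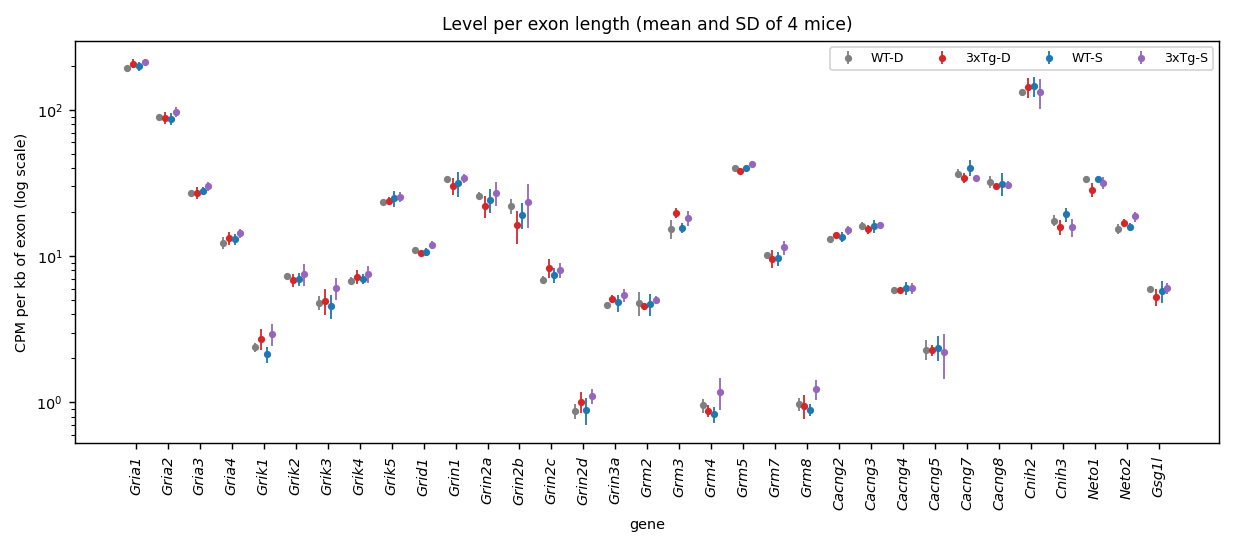
Level of each of the 33 genes in CPM per kb of exon (log axis) by group. Points are means and bars SD of 4 mice. Gria1, Cnih2 and Gria2 stood highest in all 4 groups, and Grin2d, Grm4 and Grm8 lowest.

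The first comparison, 3xTg-D vs WT-D, asked how the genotype changed these genes under vehicle. Grm3 was the only member past the threshold, an unadjusted p of 0.01 or less in edgeR's quasi-likelihood test, so 1 of 33 genes was called. Across all genes tested 4.91% passed that threshold and 1.85% an adjusted p of 0.05 or less, which no member did. In edgeR 5 members had an unadjusted p under 0.05, beside 2077 of the 16475 genes tested. In DESeq2 0 members passed the adjusted threshold. Of the 33 genes, 15 had a positive and 18 a negative log2 fold change, with a median of -0.02, beside 49.99% positive among all genes and a median of 0.00. Without WT-D mouse 4 there were 19 positive, the median was 0.02, and Grm3 and Neto1 were called in edgeR, beside 676 of 16475 genes. Standard errors of the members were between 0.05 and 0.17.

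Grm3 encodes mGlu3, a group II receptor of neurons and astrocytes, on chromosome 5 from 9485541 to 9725170. It had 38.1, 45.0, 55.0 and 50.1 CPM in WT-D mice 1 to 4 and 62.9, 63.6, 60.9 and 53.6 in 3xTg-D mice 1 to 4. The groups overlapped by 1 mouse each, with the highest WT-D mouse above the lowest 3xTg-D mouse. Grm3 rose by a log2 fold change of 0.36 ± 0.10 (SE), from 47.1 ± 7.25 to 60.2 ± 4.59 CPM (SD, n = 4; edgeR unadjusted p = 0.00564, adjusted p = 0.149). Without WT-D mouse 4, the library with choroid plexus markers, it was 0.38 and stayed past the threshold in edgeR. The call did not hold without WT-D mouse 1 or 2 or without 3xTg-D mouse 1, 2 or 3, where p was between 0.0116 and 0.0177 in edgeR and the log2 fold change between 0.27 and 0.35.

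The summed level of 7 astrocyte markers was 2386 to 2671 CPM in WT-D and 2535 to 3974 in 3xTg-D mice, and edgeR called none of the 7, with 3 at an unadjusted p under 0.05, all higher in 3xTg-D. Their median log2 fold change was 0.24. The highest sum belonged to 3xTg-D mouse 2, which also had the highest Grm3 and the highest Grin2c (GluN2C, an NMDA receptor subunit also made by astrocytes). The part of astrocyte content in the Grm3 difference was not tested.

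The next members by p did not pass the threshold. Neto1 had 259 to 290.4 CPM in WT-D and 199 to 257 in 3xTg-D mice, with a log2 fold change of -0.24 ± 0.08 (edgeR unadjusted p = 0.0137, adjusted p = 0.237). It was the only one of the 33 genes whose WT-D and 3xTg-D mice did not overlap, beside 8.17% of all genes. Grin2c had 32.2 to 36.5 CPM in WT-D and 36.0 to 50.2 in 3xTg-D mice, a log2 difference of 0.28 ± 0.10 (edgeR unadjusted p = 0.0150, adjusted p = 0.248).

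Grin2b encodes GluN2B, the NMDA receptor subunit that slows channel closing, on chromosome 6 from 135713233 to 136173511. It had 577, 501, 628 and 482 CPM in WT-D mice 1 to 4 and 495, 265, 468 and 395 in 3xTg-D mice. The 3xTg-D mean of 406 ± 103 CPM lay below the WT-D mean of 547 ± 67.9, with 1 mouse of 3xTg-D inside the WT-D range. The log2 fold change was -0.43 ± 0.17 (edgeR unadjusted p = 0.0280, adjusted p = 0.320), the lowest of the 33 genes in this comparison. Grin2a (GluN2A), the other main GluN2 subunit of the adult hippocampus, was also lower, at -0.23 ± 0.11 (edgeR unadjusted p = 0.0554, adjusted p = 0.413). Of the summed GluN2 genes per exon length, Grin2b made up 39.5 ± 2.47% in WT-D and 33.9 ± 4.64% in 3xTg-D mice.

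**Figure D2:**
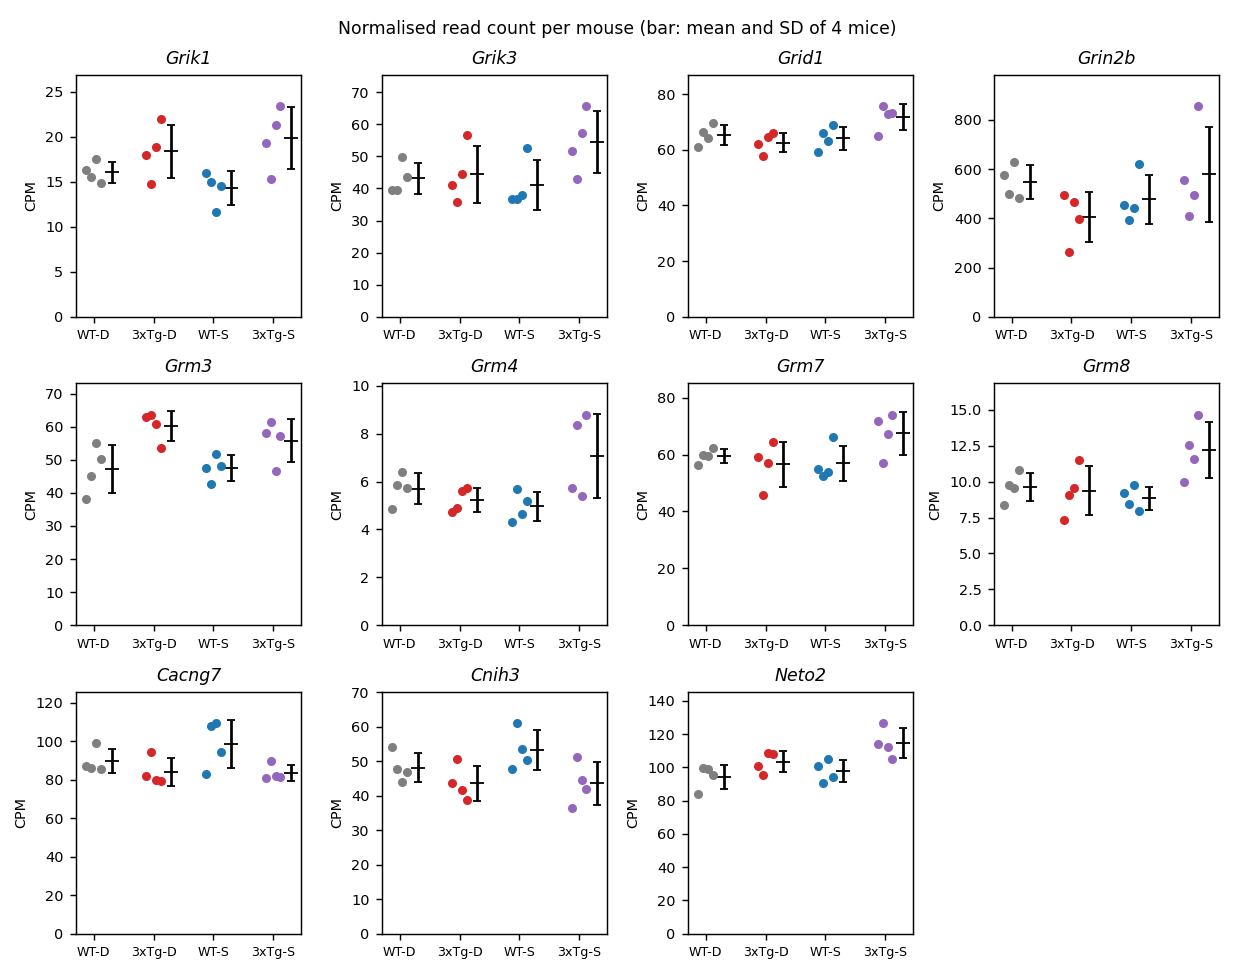
Normalised read count (CPM, axis from 0) of 11 genes in each mouse by group. Points are mice 1 to 4 from left to right, and the bar beside them is the mean and SD of 4 mice. Grm3 stood above the WT-D mice in 3xTg-D apart from 1 mouse of each, and Grm8 stood higher in every 3xTg-S than in any WT-S mouse.

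WT-S vs WT-D asked what the inhibitor did in mice without the transgenes, and 0 of 33 genes were called by edgeR, with 0 at an unadjusted p under 0.05 and 0 by DESeq2. Here 0.188% of all genes passed the threshold and 0% the adjusted one, and 371 of 16475 had an unadjusted p under 0.05 in edgeR. Log2 fold changes of the members lay between -0.20 and 0.15, with 18 positive and a median of 0.01, beside 49.9% positive among all genes. No member had groups that did not overlap, against 1.48% of all genes. Without WT-S mouse 1 edgeR still called 0 members, but 3 had an unadjusted p under 0.05, beside 392 of all genes. In that fit 22 members were positive and the median was 0.03. Without WT-D mouse 4 it called 0 genes, with 0 under 0.05 and 18 positive. Standard errors had a median of 0.09 and reached 0.16, and a call needs a change of several standard errors, so moderate changes were not detectable here.

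CAY10566 in 3xTg mice was compared as 3xTg-S vs 3xTg-D. No member was called by edgeR or by DESeq2, beside 0.904% of all genes at the threshold and 0% at the adjusted one. With the mouse number as a block edgeR called 5 members, beside 1133 of 16475 genes, as given at the end. In the main fit 5 of the 33 genes had an unadjusted p under 0.05 in edgeR, beside 1043 of 16475 genes. All 5 were higher in 3xTg-S: Grid1, Grm4, Grm8, Grm5 and Grm7. No member's groups were free of overlap, against 3.16% of all genes. Even so, 27 of 33 genes had a positive log2 fold change, with a median of 0.12, whereas 51.9% of all genes did, with a median of 0.01. The median was 0.08 without 3xTg-D mouse 2 and 0.16 without 3xTg-D mouse 4, with 26 to 31 genes positive over the 8 fits that left out 1 mouse.

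By family, all 4 AMPA and all 5 kainate receptor subunits were positive (medians 0.12 and 0.11), as were 5 of 6 NMDA receptor subunits (0.15) and 5 of 6 metabotropic receptors (0.21). Grin2c (-0.04 ± 0.11) and Grm3 (-0.11 ± 0.09) were the exceptions. The TARPs were closest to 0, with 4 of 6 positive and a median of 0.04, and both cornichons were at or below 0 (Cnih2 -0.11 and Cnih3 -0.00). These counts describe genes that share libraries and are not independent of each other.

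The 3 group III metabotropic receptors were all above 0, and none was called. Grm4 (mGlu4) was at 4.72, 4.90, 5.62 and 5.72 CPM in 3xTg-D mice 1 to 4 and at 5.75, 8.34, 5.39 and 8.79 in 3xTg-S mice 1 to 4. Mice 2 and 4 of 3xTg-S were well above the rest, and the log2 difference was 0.44 ± 0.18 (edgeR unadjusted p = 0.0303, adjusted p = 0.722). Grm8 (mGlu8) was at 7.36, 9.05, 9.54 and 11.5 CPM in 3xTg-D and at 9.99, 12.5, 11.6 and 14.7 in 3xTg-S mice, a log2 difference of 0.38 ± 0.15 (edgeR unadjusted p = 0.0307, adjusted p = 0.722). Mice 2, 3 and 4 of 3xTg-S lay at or above the highest 3xTg-D mouse. Grm7 (mGlu7, a receptor of the presynaptic active zone) was at 59.2, 45.8, 57.0 and 64.4 against 71.9, 57.1, 67.1 and 74.0 CPM. Both groups' second mouse was lowest, and the log2 difference was 0.26 ± 0.11 (edgeR unadjusted p = 0.0453, adjusted p = 0.722).

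Grid1 encodes GluD1, a delta receptor that links synapses through cerebellins. It had 62.0, 57.9, 64.4 and 65.9 CPM in 3xTg-D mice and 64.9, 75.7, 72.9 and 73.0 in 3xTg-S mice. Mouse 1 of 3xTg-S alone lay within the 3xTg-D range, and the log2 difference was 0.20 ± 0.07 (edgeR unadjusted p = 0.0180, adjusted p = 0.722). Grik3 (GluK3, a kainate receptor subunit of low glutamate sensitivity) had 41.1, 35.7, 44.6 and 56.6 against 51.8, 42.9, 57.4 and 65.7 CPM. Its log2 difference was 0.29 ± 0.15 (edgeR unadjusted p = 0.0854, adjusted p = 0.722), and the groups overlapped.

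For Grin2b the 3xTg-S mice had 554, 410.1, 496 and 856 CPM, so that mouse 4 alone lay above the WT-D range and mouse 2 below it. The mean was 579 ± 194 CPM, and the log2 difference from 3xTg-D was 0.51 ± 0.24 (edgeR unadjusted p = 0.0529, adjusted p = 0.722), the largest of the 33. It was 0.26 without 3xTg-S mouse 4 and 0.34 without 3xTg-D mouse 2. Grin2a was at 0.31 ± 0.15 (edgeR unadjusted p = 0.0662, adjusted p = 0.722).

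**Figure D3:**
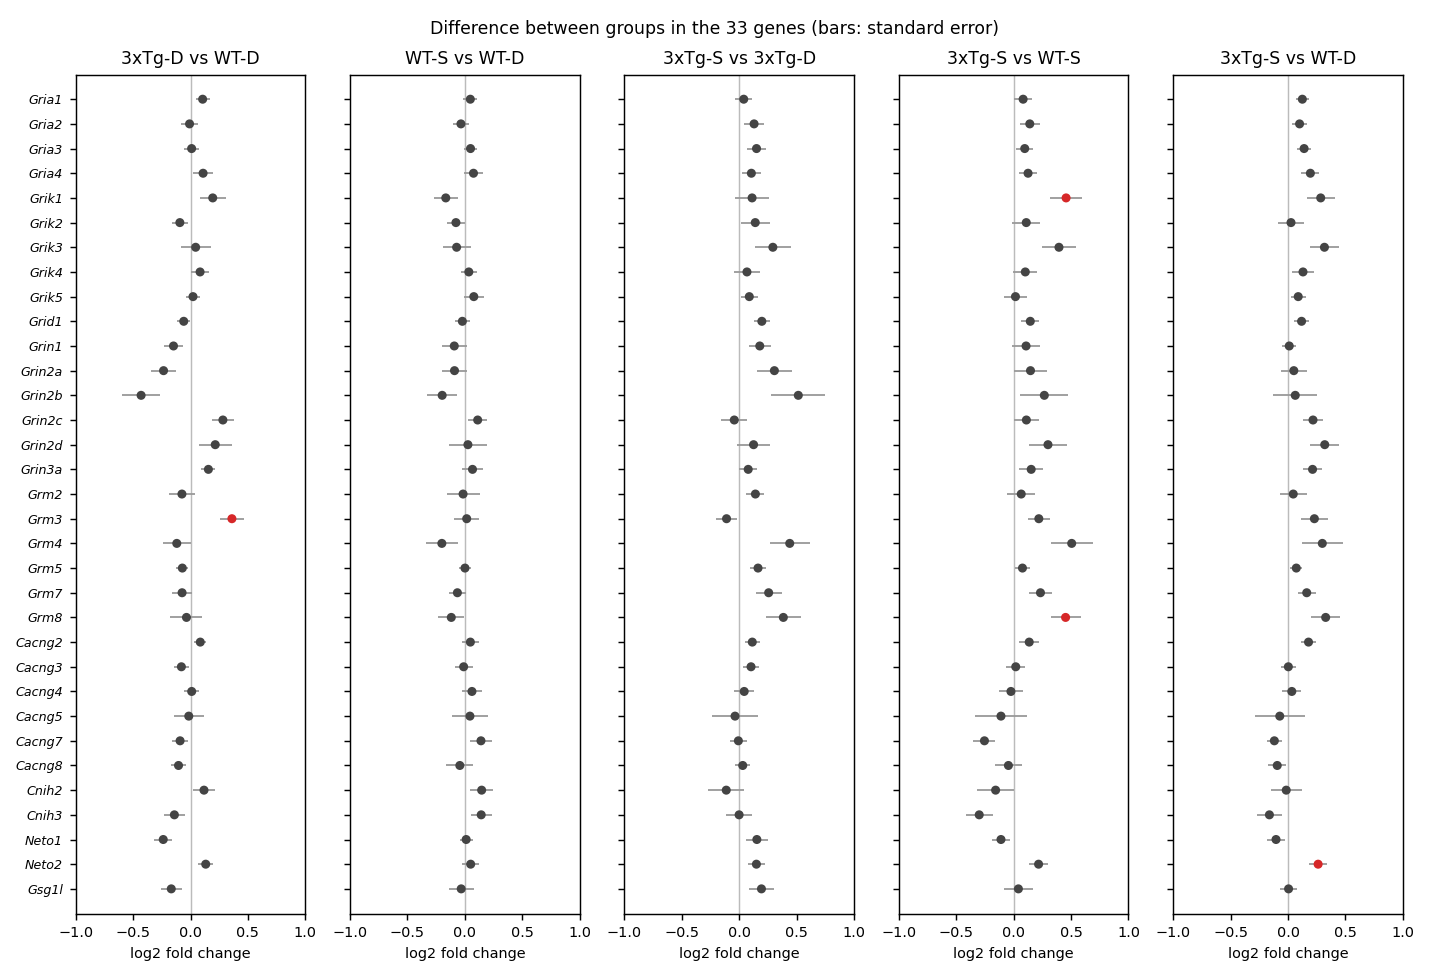
Log2 fold change of the 33 genes in the 5 pairwise comparisons, with bars for the standard error. Called genes are red: 1 in 3xTg-D vs WT-D, 0 in both comparisons of inhibitor with vehicle, 2 in 3xTg-S vs WT-S and 1 in 3xTg-S vs WT-D. Most points lie to the right of 0 in the 3 comparisons with 3xTg-S.

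Measures of the libraries moved with these differences. The share of uniquely mapped reads outside annotated genes was 8.79% to 11.3% in 3xTg-D and 7.82% to 15.1% in 3xTg-S mice. The 3xTg-D mouse with the lowest share (8.79%, mouse 2) had the lowest Grin2b of all 16 mice, and the 3xTg-S mouse with the highest (15.1%, mouse 4) had the highest. Within WT-S and within 3xTg-S the order of the 4 mice by this share was also their order by Grin2b, but not within WT-D or 3xTg-D. With the share as a covariate, the Grin2b difference was 0.23 in 3xTg-S vs 3xTg-D and -0.28 in 3xTg-D vs WT-D (edgeR unadjusted p = 0.114 and 0.112). Over the 33 genes the median difference in 3xTg-S vs 3xTg-D was then 0.10, with 29 of 33 positive.

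Differences also varied with gene span, and glial markers moved as well. The 16 members that span more than the median of 128 kb had a median log2 difference of 0.16 in 3xTg-S vs 3xTg-D, with 15 positive, and the 16 with a shorter span had 0.09, with 11 positive. In 3xTg-S vs WT-S all 16 long members were positive (median 0.15) against 9 of the 16 short ones (0.02). No such split of all genes is given, so whether it is particular to these members cannot be told. Over the same 3xTg-S vs 3xTg-D contrast, median log2 differences were -0.23 for 7 astrocyte, -0.36 for 6 oligodendrocyte and -0.35 for 6 microglia markers, 2 of which were called (Cnp and Mag, both oligodendrocyte). Oligodendrocyte sums were 5525 to 6599.5 CPM in 3xTg-D and 4224 to 6613 in 3xTg-S mice. Markers of CA1 and CA3 pyramidal cells and dentate granule cells had medians of 0.02, 0.02 and 0.00. The part of any of these in the receptor gene differences was not tested.

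**Figure D4:**
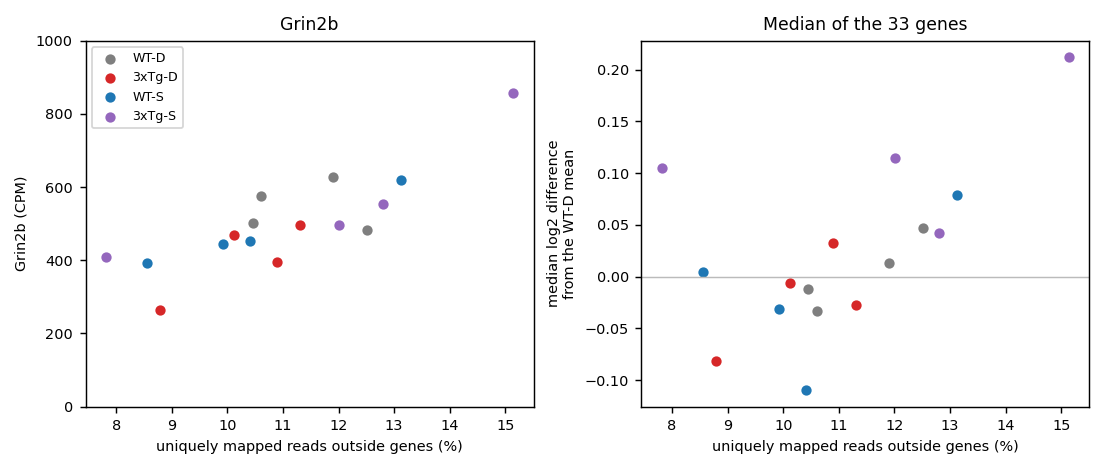
Grin2b level in CPM (left) and, for each mouse, the median over the 33 genes of log2 CPM minus the WT-D mean (right), against the percentage of uniquely mapped reads outside genes. Each point is 1 mouse. Mouse 4 of 3xTg-S lies highest in both panels, with 15.1% of reads outside genes and a median of 0.21, and all 4 3xTg-S mice have a median above 0.

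Whether the inhibitor acted differently by genotype was tested as a genotype by CAY10566 interaction in all 16 mice. edgeR called 0 of 33 genes, with 5 at an unadjusted p under 0.05, and DESeq2 called 1, Grm4. In edgeR 0.595% of all genes passed the threshold and 0% the adjusted one, and 821 of 16475 had an unadjusted p under 0.05. The 5 genes were Grm4 (0.64 ± 0.23), Grm8 (0.50 ± 0.19), Grin2b (0.71 ± 0.30), Grid1 (0.22 ± 0.09) and Grm7 (0.32 ± 0.14), each a log2 difference between the inhibitor's effects in 3xTg and in WT mice. Adjusted p was 0.788 for each of them in edgeR. Of the 33 genes 25 were positive, with a median of 0.10 that was 0.06 without 3xTg-D mouse 2. edgeR also called 0 members without WT-D mouse 4 (3 under 0.05 beside 570 of all genes, 23 positive). The same held without WT-S mouse 1 (2 under 0.05 beside 596 of all genes, 21 positive). A difference in the inhibitor's effect between genotypes was therefore not shown for any of the 33 genes in that test. With the mouse number as a block edgeR called 5 members, beside 624 of all genes, as given at the end.

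With inhibitor in both genotypes, 3xTg-S vs WT-S, 2 of 33 genes were called, Grm8 and Grik1, beside 4.25% of all genes. At the adjusted threshold 0 of 33 passed in edgeR and 0 in DESeq2, beside 1.40% of all genes in edgeR. An unadjusted p under 0.05 in edgeR was found for 9 members, beside 1769 of 16475 genes. Without WT-S mouse 1 the called genes were Grik1 and Cacng7, beside 530 of 16475 genes, with 22 members positive and a median of 0.08. Of the members 26 were positive, with a median log2 fold change of 0.11, against 50.4% of all genes and a median of 0.00. The median was 0.06 without 3xTg-S mouse 4, the lowest of the 8 fits that left out 1 mouse, and 0.14 without WT-S mouse 4, the highest. All 6 NMDA receptor subunits, all 6 metabotropic receptors, all 4 AMPA and all 5 kainate receptor subunits were above 0, and both cornichons and 4 of 6 TARPs below.

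Grm8, on chromosome 6 from 27275119 to 28135178, had 9.19, 8.44, 9.75 and 7.97 CPM in WT-S mice 1 to 4. All 4 3xTg-S mice, given above, were higher. It rose by a log2 fold change of 0.45 ± 0.13, from 8.84 ± 0.792 to 12.2 ± 1.95 CPM (SD, n = 4; edgeR unadjusted p = 0.00559, adjusted p = 0.169). In edgeR the call did not hold without WT-S mouse 1, 2 or 4 or without 3xTg-S mouse 2 or 4, where p was between 0.0113 and 0.0209 and the log2 fold change between 0.35 and 0.47. Without WT-S mouse 1, the other library with choroid plexus markers, it was 0.47 and not called.

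Grik1 encodes GluK1, a kainate receptor subunit found in interneurons, on chromosome 16 from 87895900 to 88290265. It had 16, 15, 11.7 and 14.5 CPM in WT-S and 19.3, 15.3, 21.3 and 23.4 in 3xTg-S mice. Mouse 2 of 3xTg-S alone fell within the WT-S range. Grik1 rose by a log2 fold change of 0.46 ± 0.14, from 14.3 ± 1.85 to 19.8 ± 3.43 CPM (SD, n = 4; edgeR unadjusted p = 0.00781, adjusted p = 0.207). The vehicle groups had 16.3, 15.5, 17.5 and 14.8 CPM in WT-D and 17.9, 14.8, 18.9 and 21.9 in 3xTg-D mice, and there the log2 fold change between genotypes was 0.19 ± 0.11. Without WT-S mouse 1 Grik1 was at 0.51 and stayed called in edgeR. The call did not hold without WT-S mouse 2, 3 or 4 or without 3xTg-S mouse 1, 3 or 4, with log2 fold changes of 0.37 to 0.48 and edgeR p between 0.0138 and 0.0276. Of 7 interneuron markers, 0 were called in 3xTg-S vs WT-S, with 2 at an unadjusted p under 0.05 in edgeR and a median log2 fold change of -0.07. Of the same markers Vip and Lhx6 were called higher in 3xTg-D vs WT-D and in 3xTg-S vs WT-D, and Lhx6 in WT-S vs WT-D. Their summed level lay between 768 and 982 CPM in WT-S and between 794 and 897 in 3xTg-S mice. Under vehicle the ranges were 734 to 851 CPM for WT-D and 761 to 905 for 3xTg-D. Their part in the Grik1 difference was not tested.

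Auxiliary subunits gave the lowest values here. Cnih3, a cornichon that slows AMPA receptor closing, had 47.7, 61.0, 53.5 and 50.4 CPM in WT-S and 36.5, 51.3, 44.5 and 41.9 in 3xTg-S mice. Its log2 fold change was -0.30 ± 0.12 (edgeR unadjusted p = 0.0256, adjusted p = 0.357), and mouse 2 was highest in both groups. Cacng7 (TARP gamma-7) had 82.8, 108, 109 and 94.4 CPM in WT-S and 80.8, 89.6, 82.0 and 81.3 in 3xTg-S mice, a log2 fold change of -0.25 ± 0.10 (edgeR unadjusted p = 0.0229, adjusted p = 0.342). Mouse 1 of WT-S, with 82.8 CPM, lay inside the 3xTg-S range. Grm4, Grik3 and Grm7 were at 0.51 ± 0.18, 0.39 ± 0.15 and 0.23 ± 0.10 in the same comparison, all with an edgeR adjusted p of 0.318 or more. Their WT-S mice had 4.31 to 5.69, 36.7 to 52.6 and 52.5 to 66.2 CPM.

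Groups that did not overlap were found for 2 of 33 genes, Grm8 and Neto2, beside 6.75% of all genes. For Neto2 the lowest 3xTg-S mouse stood only just above the highest WT-S mouse, and its log2 fold change was 0.22 ± 0.08 (edgeR unadjusted p = 0.0212, adjusted p = 0.328).

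The last comparison set 3xTg mice given the inhibitor beside WT mice given vehicle (3xTg-S vs WT-D) and shares groups with those above. Neto2 was the 1 of 33 genes called, beside 5.69% of all genes, and 0 of 33 passed the adjusted threshold in edgeR, beside 1.58%. In edgeR 10 had an unadjusted p under 0.05, beside 2159 of 16475 genes. DESeq2 gave 1 past the adjusted threshold, Neto2, beside 577 of 16416 genes. Without WT-D mouse 4 edgeR called 0 members and gave 5 at an unadjusted p under 0.05, beside 792 and 2000 of all genes. There 27 members were positive, and DESeq2 was not run without that mouse. Neto2, on chromosome 8 from 85636588 to 85700924, encodes a partner that slows kainate receptor desensitisation. It had 84.1, 99.3, 99.0 and 95.2 CPM in WT-D, 101, 95.6, 109 and 108 in 3xTg-D, 101, 90.3, 105 and 94.3 in WT-S and 114, 126, 112 and 105 in 3xTg-S mice. Every 3xTg-S mouse was above every WT-D mouse, whereas WT-S overlapped both vehicle groups. Neto2 rose by a log2 fold change of 0.26 ± 0.08 (edgeR unadjusted p = 0.00592, adjusted p = 0.134), and the separate steps were 0.13 ± 0.07 for 3xTg-D vs WT-D and 0.15 ± 0.07 for 3xTg-S vs 3xTg-D.

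In edgeR the Neto2 call did not hold without WT-D mouse 1 or 4 or without 3xTg-S mouse 1 or 3, where p was between 0.0124 and 0.0201 and the log2 fold change between 0.21 and 0.27. Of the 33 genes 27 were positive, with a median of 0.10, beside 48.8% of all genes. Non-overlapping groups were found for Neto2 and Gria3 (GluA3), 2 of 33, beside 9.55% of all genes. Gria3 had 259, 264, 269 and 273 CPM in WT-D and 284, 295, 283 and 327 in 3xTg-S mice, a log2 fold change of 0.14 ± 0.06 (edgeR unadjusted p = 0.0388, adjusted p = 0.339).

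The wider glutamate pathway was examined in 5 lists, and 4 of them are described for 3xTg-D vs WT-D, where 4.91% of all genes were called. Of 5 tested relatives of the members, 1 was called, the TARP relative Cacng6, with 1.14 ± 0.395 CPM in WT-D and 2.93 ± 0.604 in 3xTg-D mice (log2 fold change 1.35 ± 0.26, edgeR adjusted p = 0.0299). None of 20 AMPA receptor partners and biogenesis factors and none of 15 NMDA receptor scaffold and signalling genes was called in edgeR, with 0 and 1 at an unadjusted p under 0.05, and medians were -0.01 and -0.02. Among 11 genes of glutamate release, uptake and synthesis, Slc38a2, a glutamine transporter, fell by 0.37 on the log2 scale, from 183 to 142 CPM (SE 0.09, edgeR adjusted p = 0.0845). In 3xTg-S vs 3xTg-D the 5 lists held 0 called higher and 1 called lower of 67 tested, beside 0.904% of all genes. List medians there lay between -0.03 and 0.11, beside 0.12 for the 33 members. Of the same 67 genes edgeR called 1 higher and 1 lower in 3xTg-S vs WT-S, beside 4.25% of all genes. In 3xTg-S vs WT-D it called 2 higher and 1 lower, beside 5.69%, and in the interaction 1 higher and 1 lower, beside 0.595%. None was called in WT-S vs WT-D, beside 0.188%.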

How the data were processed

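Hippocampal RNA of 16 mice was sequenced as single-end reads from poly(A)-selected libraries. Per the labels and the study's methods, the authors trimmed reads with Trimmomatic 0.35, aligned them with STAR 2.5.1b to GRCm38 (Gencode annotation) and deposited raw read counts per gene, not normalized. Strand and UMI handling are not given in the sources used here. Where genes on opposite strands overlap, reads may therefore have been set aside as ambiguous.

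Groups came from the labels. Counts were filtered (filterByExpr, minimum count 10, minimum total 15; 16475 genes left), scaled by TMM and compared pairwise with edgeR 4.0.16 quasi-likelihood tests (two-sided, R 4.3.3), with the study's threshold of 0.01 on the unadjusted p. Adjustment was Benjamini-Hochberg over all tested genes. The standard error is the log2 fold change divided by the root of F. Replicates are separate mice. Replicate libraries differed by more than counting noise (chi-square 3.90 to 47.2 per degree of freedom).

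Fits were tested on counts simulated for independent mice with a common dispersion. Pairing of mice and outlying libraries were not simulated, so that test does not cover them. The 33 genes and all lists were chosen with earlier results of these data known. Genes were described mouse by mouse where p was 0.01 or less in any comparison, with or without the replicate number as a block: 4 genes without it and 7 more with it. Neto1, Grin2c, Grin2a, Gria3, the called marker genes and the genes listed at p under 0.05 were added after their values were seen. From each pathway list, at most 4 genes with p of 0.01 or less in 3xTg-D vs WT-D were named, and some strain details and one list's result are not reported here. Alternatives were DESeq2 1.42.0, median-ratio size factors, no filter, all mice in one fit, the block, the share of reads outside genes as covariate, the adjusted threshold and each mouse left out. Exon lengths and overlaps came from Gencode M21 on the same build. The pairing check correlated deviations from group means between mice of the same number. All 4 pairs were over 0.1 only in WT-S vs WT-D (0.114 to 0.34). There none of the 33 genes was called with or without the block, whereas calls over all genes were 115 with it and 31 without.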

Additional observations from a re-analysis of the deposited data

Results flagged for a closer look

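Dixon's test, applied to log2 CPM in 132 groups of 4 mice (33 genes in 4 groups), marked 6 mice that stood apart from the other 3 of their group, with a ratio of gap to range above its 95% critical value. Chance alone marks about 1 group in 20, so 6 of 132 is near that rate. In WT-S, mouse 4 was highest for Grik3 (52.6 CPM against 36.7 to 38.1, ratio 0.900) and for Grin3a (71.0 against 54.3 to 56.7, ratio 0.842). Grin3a encodes GluN3A, an NMDA receptor subunit that lowers calcium entry. This mouse also had the highest share of reads outside genes in WT-S, at 13.1%. In 3xTg-S, mouse 4 was lowest for Cacng4 (18.7 CPM against 22.2 to 22.9, ratio 0.844) and mouse 2 was highest for Cacng7 (89.6 against 80.8 to 82.0, ratio 0.860). In WT-D, mouse 3 was highest for Cacng7 (98.8 CPM against 85.7 to 87.3, ratio 0.873) and mouse 4 was lowest for Neto1 (259 against 286 to 290.4, ratio 0.852). The WT-D mouse 4 library is the one with choroid plexus markers at 735 CPM. Without it, Neto1 joined Grm3 among the called genes in 3xTg-D vs WT-D, which made 2, beside 676 of all genes.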

How the results depend on the processing

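Counts of called genes were small, and most alternatives moved some. Beside each count, the number of all genes called is given in brackets, of 16475 tested in edgeR or 31132 to 33942 without the filter. In 3xTg-D vs WT-D (1 gene, beside 809 of all), the count was 3 with DESeq2 (Grm3, Grin2b, Neto1, beside 870). It was 4 without the filter on low counts (1170), 2 with all 16 mice in one fit (697) and 0 at the adjusted threshold (305). In 3xTg-S vs 3xTg-D (0 genes, beside 149 of all) it was 1 without the filter (355) and 2 in the fit of all mice (Grm5, Grid1, beside 248). In 3xTg-S vs WT-S (2 genes, beside 701 of all) it was 4 with the covariate (985) and 4 without the filter (1077). It was 4 with all mice (964) and 0 at the adjusted threshold (230). In 3xTg-S vs WT-D (1 gene, beside 937 of all) it was 2 with the covariate (1379) and 2 without the filter (1261). It was 2 with all mice (1005) and 0 at the adjusted threshold (261). The interaction (0 genes, beside 98 of all) gave 1 with DESeq2 (114) and 1 without the filter (208). Leaving out 1 mouse gave 0 (WT-D 1, WT-D 2 or 3xTg-D 1) to 3 genes (3xTg-D 2) in 3xTg-D vs WT-D, 0 to 1 in 3xTg-S vs 3xTg-D (Grm8, Grid1 or Grm7, without 3xTg-D 4, 3xTg-S 1 or 3xTg-S 2), 0 to 1 in WT-S vs WT-D (Grin2b, without WT-S 4), 0 (WT-S 2 or 3xTg-S 4) to 4 (3xTg-S 2) in 3xTg-S vs WT-S, 0 (WT-D 1 or 4) to 6 (3xTg-S 2) in 3xTg-S vs WT-D and 0 to 2 (3xTg-S 1) in the interaction. Over the same fits 651 to 913, 68 to 802, 22 to 516, 516 to 993, 664 to 1545 and 56 to 487 of all genes were called, in that order. The cause of these changes was not tested.

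With the replicate number as a block, counts were 2 in 3xTg-D vs WT-D (Grm3, Grin2b), 5 in 3xTg-S vs 3xTg-D (Grik3, Grid1, Grin2b, Grm7, Grm8), 7 in 3xTg-S vs WT-S (Grik1, Grik3, Grm4, Grm7, Grm8, Cacng7, Cnih3), 3 in 3xTg-S vs WT-D (Grik3, Grm8, Neto2), 5 in the interaction (Grik3, Grin2b, Grm4, Grm7, Grm8) and 0 in WT-S vs WT-D. Of all genes the block fits called 944, 1133, 1338, 1075, 624 and 115 in that order. The main fits called 809, 149, 701, 937, 98 and 31. With the block 2 members passed the adjusted threshold in 3xTg-S vs 3xTg-D (Grik3, Grm7), beside 204 of all genes. In 3xTg-S vs WT-S 2 passed (Grik3, Cnih3), beside 517. Without 3xTg-S mouse 2 it was passed by 3 members in 3xTg-S vs WT-D (606 of all genes) and by Grik1 in 3xTg-S vs WT-S (286). Neto2 passed in 3xTg-S vs WT-D with the covariate (566) and in DESeq2 (577). Outside WT-S vs WT-D at least 1 same-numbered pair correlated at 0.1 or less (lowest -0.101), and the study's methods describe no pairing. The main fits have no block, but these correlations cannot decide whether same-numbered mice were handled together. Mean same-number correlations were 0.213 in 3xTg-S vs 3xTg-D and 0.241 in 3xTg-S vs WT-S, against 0.217 in WT-S vs WT-D. The main counts rest on that choice. As a hint from the data, mean same-number correlations were positive in all 5 comparisons (0.0414 to 0.241), which share groups and are not independent. Means between mice of different numbers (-0.0839 to -0.0103) are no separate reference, because deviations cancel out within each group. Mouse 2 had the lowest share of reads outside genes in every group. Over the 11 described genes, 11 of 66 pairs of gene and comparison changed sign under some alternative, none of them called (main log2 fold changes of at most 0.11 in size). One was Grin2b in 3xTg-S vs WT-D, at 0.06, which was -0.18 without 3xTg-S mouse 4 and -0.06 with the covariate. Of the 4 called values, the adjusted p over all alternatives ranged from 0.0526 to 0.309 for Grm3, 0.0974 to 0.45 for Grm8, 0.0447 to 0.516 for Grik1 and 0.0377 to 0.327 for Neto2. Medians over the 33 genes, added after seeing the data, turned in sign when 1 mouse was left out in 3xTg-D vs WT-D (-0.07 to 0.02) and WT-S vs WT-D (-0.03 to 0.03), and stayed positive in the other comparisons.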
